A study of Mus musculus with 7 samples.

Results

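The Mef2 factors and the class IIa histone deacetylases were followed in myoblasts of mice that lack Hmga2. All probe sets that the platform table pairs with a single Mef2 gene or with Hdac4, Hdac5, Hdac7 or Hdac9 were taken, which gave 8 of 18193 genes with a probe set of their own, and 23 of 45037 probe sets. Mef2a had 6 probe sets, Mef2c had 5, Mef2d and Hdac4 had 3 each, Hdac7 and Hdac9 had 2 each, and Mef2b and Hdac5 had 1 each. Probe sets of one gene read transcripts of that gene and are not independent of each other, although they need not agree.

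The groups were 4 samples of myoblasts from Hmga2 KO mice (HMGA2 -/- in the labels) and 3 samples of myoblasts from wild type mice, all on the C57BL/6 strain. Males gave Hmga2 KO replicates 1 and 3, and females gave Hmga2 KO replicates 2 and 4 as well as every wild type sample, so in the male samples sex and the loss of Hmga2 cannot be told apart. The labels give no ages, culture conditions or details of the deleted allele, and state that the cells were not treated. Biotin-labelled cRNA was hybridised to Affymetrix mouse arrays, 1 per sample.

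Mef2 proteins are MADS-box transcription factors that bind an A/T-rich DNA site and, together with MyoD family factors, switch on the genes of the contractile apparatus when myoblasts differentiate. Class IIa histone deacetylases bind Mef2 proteins and hold their target genes silent in undifferentiated cells. When calcium-dependent and other kinases phosphorylate them, these deacetylases are bound by 14-3-3 proteins and leave the nucleus, and the target genes are released. Mef2 proteins also act on genes of their own repressors, of which Hdac9 is an example known from mouse muscle.

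The median intensity was 150 on every array, and the lowest values were 33.2 to 36.7. As a measure of background, 9 probe sets of 3 Y-linked genes gave 33.9 to 58.2 in the 5 female samples, and all 23 probe sets reached higher values. The brightest Hmga2 probe set read 96.6, 85.7, 96.7 and 104 in Hmga2 KO and 11999, 9998 and 12800 in wild type. Its Hmga2 KO values lay above the background range, so a value just above that range does not by itself show expression. The 3' to 5' ratio of the Actb control, a sign of RNA integrity, was 1.61 to 1.74 in 6 samples and 1.94 in wild type replicate 2. That sample was the highest of the 7 in 9 of the 23 probe sets, and in 20.5% of all probe sets. Hmga2 KO replicate 1 was the lowest in 14 of the 23, and in 20.2% of all probe sets. In bulk RNA of this kind, fewer cells of a type and less RNA per cell cannot be told apart.

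Across all 7 samples, none of the 23 probe sets passed an adjusted p of 0.05 between Hmga2 KO and wild type by limma, and 0.0178% of all probe sets did. Without adjustment, 7 of 23 had a p under 0.05 with lower values in Hmga2 KO, against 7.9% of all probe sets, and 0 of 23 with higher values, against 3.73%. The 7 were 4 probe sets of Mef2c and 1 each of Mef2d, Hdac5 and Hdac9. Every Hmga2 KO sample lay below every wild type sample in 3 of 23, all of Mef2c, against 7.71% of all probe sets. Mef2a 1442623_at had the reverse order, with every Hmga2 KO sample above every wild type sample. The share of all probe sets with that reverse order was not counted. The median difference over all probe sets was -0.05 on the log2 scale.

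Mef2c, a factor of muscle and heart development, split the Hmga2 KO samples by sex. Its brightest probe set (1451506_at) read 5622 and 7193 in the male Hmga2 KO samples, 10305 and 10286 in the female Hmga2 KO samples, and 10756, 10687 and 10768 in wild type. The male values lay well below the other 5, which were close to each other. On the probe set 1421027_a_at the intensity was 2095 and 2263 in the male Hmga2 KO samples, 4112 and 3757 in the female ones, and 4066, 4588 and 4702 in wild type. The dimmest Mef2c probe set (1421028_a_at) repeated this order, with 518 and 622 in males and 1055 and 973 in females of the Hmga2 KO, against 1134, 1317 and 1174 in wild type. On the remaining 2 probe sets, 1424852_at read 3741 and 4863 in males, 7708 and 6799 in females of the Hmga2 KO and 7376, 9665 and 8467 in wild type, whereas 1451507_at read 1912 and 3036 in males, 5180 and 4295 in females of the Hmga2 KO and 5230, 6374 and 5464 in wild type. In all 5 probe sets the male samples were the lowest, with replicate 1 below replicate 3, and the lowest Pearson r between any of the 5 over the 7 samples was 0.954.

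**Figure D1:**
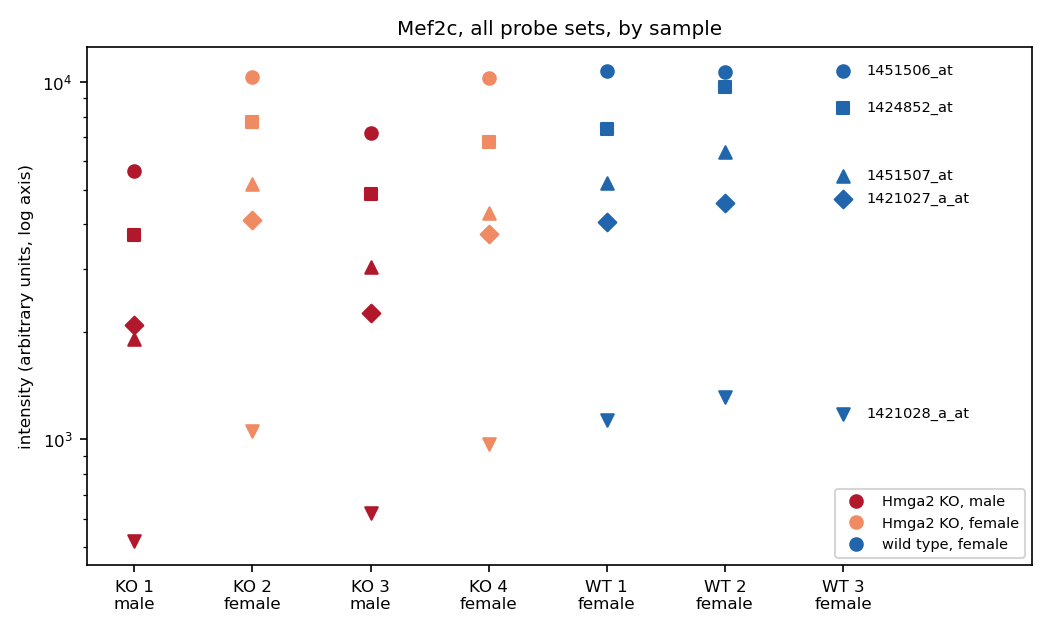
Intensity of the 5 Mef2c probe sets (marker shapes) in each sample, on a log axis, with the 4 Hmga2 KO samples on the left and the 3 wild type samples on the right. On every probe set the 2 male Hmga2 KO samples are the lowest, such as 5622 and 7193 against 10286 or more on the brightest.

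In a fit with male Hmga2 KO, female Hmga2 KO and wild type as separate groups, 2 of the 23 probe sets passed the adjusted threshold as lower in male Hmga2 KO than in wild type, and 0.0666% of all probe sets did so. Both were Mef2c probe sets. On 1421027_a_at the log2 difference was -1.03 (SE 0.12, adjusted p = 0.0210, limma), a ratio of 0.490, and on 1421028_a_at it was -1.09 (SE 0.13, adjusted p = 0.0236), a ratio of 0.471. The other 3 Mef2c probe sets differed by -0.76, -0.99 and -1.23, with adjusted p of 0.0907, 0.0784 and 0.0724. With only the brightest probe set of each gene, 0 of 8 genes passed as lower in male Hmga2 KO, against 0.0879% of all genes. Mef2c then had an adjusted p of 0.0759 (limma).

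These Mef2c calls rest on few samples, and this comparison was taken up for recomputing after seeing the data. Without Hmga2 KO replicate 1 the 2 differences were -0.97 and -0.95 and neither passed (adjusted p = 0.218 and 0.230, limma). The lone male sample is there assumed to vary like the other groups. When wild type replicate 2 was left out both had an adjusted p of 0.0571, and when wild type replicate 3 was left out both had 0.138. Only 1421027_a_at passed when wild type replicate 1 was left out. Without Hmga2 KO replicate 3, 1421028_a_at passed and so did 1451507_at (-1.57, adjusted p = 0.0294), whereas 1421027_a_at had an adjusted p of 0.0579. With a trended and robust prior all 5 Mef2c probe sets passed.

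Female Hmga2 KO samples differed less from wild type in Mef2c. The 5 differences were -0.27 to -0.06 on the log2 scale, and for the brightest probe set the 95% interval ran from -0.36 to 0.24. None of the 23 probe sets had an unadjusted p under 0.05 between female Hmga2 KO and wild type, against 6.51% of all probe sets. Male against female Hmga2 KO, which tests the difference itself, gave Mef2c log2 differences of -0.97 to -0.69. None of the 23 passed the adjusted threshold there (smallest adjusted p = 0.165, limma), against 0.0511% of all probe sets. Without adjustment 6 of 23 had a p under 0.05 with lower values in males, the 5 of Mef2c and 1 of Hdac9, against 2.86% of all.

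Both male Hmga2 KO samples lay below the other 5 samples in 8 of 23 probe sets, against 9.82% of all probe sets. They were the 5 of Mef2c, both of Hdac9 and that of Hdac5. Without adjustment, 12 of 23 had a p under 0.05 with lower values in male Hmga2 KO than in wild type, against 8.36% of all. The 12 were 4 probe sets of Mef2a, the 5 of Mef2c, both of Hdac9 and that of Hdac5.

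Mef2a, the family member expressed widely in muscle and other tissues, set a single sample apart. Its brightest probe set (1427185_at) read 3496, 8739, 6223 and 5316 in Hmga2 KO replicates 1 to 4, against 6120, 8380 and 7771 in wild type. Hmga2 KO replicate 1 stood far below the other 6, and replicate 2 was the highest of all. On the 4 bright Mef2a probe sets the intensity of replicate 1 was 0.493 to 0.529 of the mean of the other 6 samples. The groups overlapped, and the log2 difference between Hmga2 KO and wild type was -0.38 (SE 0.26, adjusted p = 0.591, limma). Without replicate 1 it was -0.15. The other bright probe sets differed by -0.42, -0.36 and -0.35. The 2 dim ones differed by -0.24 and 0.13, so that the probe sets of the gene disagreed in sign. On the latter (1442623_at) Hmga2 KO read 163 to 184 and wild type 155 to 161, without overlap. The lowest Pearson r between any of the 6 Mef2a probe sets over the 7 samples was -0.125.

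Mef2d, which takes part in activating late muscle genes and is also widely expressed, had lower means in Hmga2 KO on all 3 probe sets, without passing the adjusted threshold. Its brightest probe set (1434487_at) read 2317, 2903, 2730 and 2619 in Hmga2 KO and 2897, 3185 and 2893 in wild type. The ranges overlapped narrowly, and the log2 difference was -0.18 (SE 0.11, adjusted p = 0.523, limma). The probe set 1437300_at read 986, 1181, 1000 and 948 in Hmga2 KO and 1138, 1587 and 1144 in wild type, a difference of -0.31. The dim one (1421388_at) read 103, 149, 127 and 99.6 in Hmga2 KO and 139, 199 and 145 in wild type, a difference of -0.42 (SE 0.17, adjusted p = 0.405, limma). On both, Hmga2 KO replicate 2 was the one sample of its group within the wild type range. Mef2b, a family member known from lymphocytes, read 88.6 to 93.5 in Hmga2 KO and 81.1 to 94.1 in wild type, and differed by 0.06. The background range ends at 58.2, but the brightest Hmga2 probe set read 85.7 to 104 in Hmga2 KO. The Mef2b values therefore do not show that the gene was expressed.

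**Figure D2:**
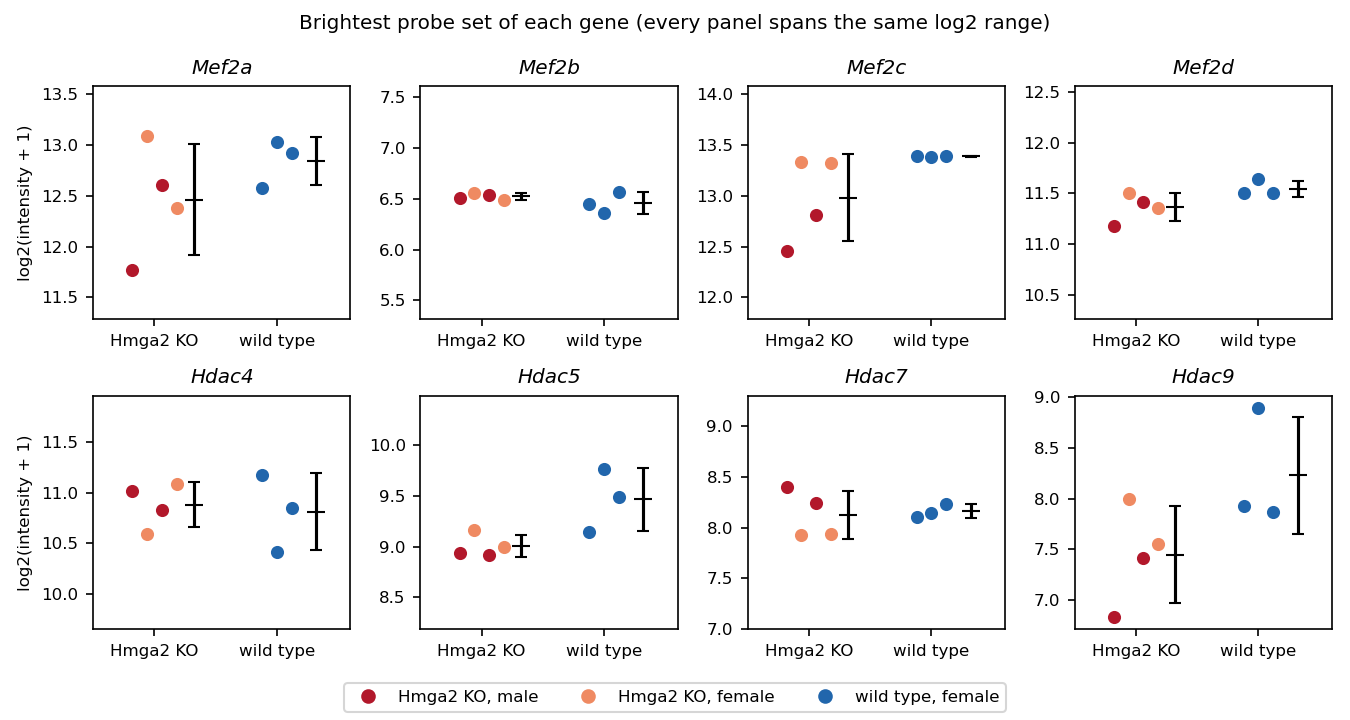
Values of log2(intensity + 1) on the brightest probe set of each gene, with 1 point per sample, Hmga2 KO left and wild type right, and the mean ± SD of each group beside the points. Mef2c separates the 2 male Hmga2 KO samples from the other 5, whereas Mef2a has a single low sample, Hmga2 KO replicate 1.

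Among the deacetylases, Hdac9 and Hdac5 had lower means in Hmga2 KO, without passing the adjusted threshold, and Hdac4 and Hdac7 differed by less. Hdac9, which lies downstream of Mef2 proteins as well as repressing them, read 113, 254, 170 and 187 in Hmga2 KO and 242, 475 and 233 in wild type on its brighter probe set (1434572_at). One Hmga2 KO sample, replicate 2, lay within the wild type range, and the high wild type value was that of replicate 2, the sample with the highest 3' to 5' ratio. The log2 difference was -0.78 (SE 0.30, adjusted p = 0.387, limma). It was -0.45 without wild type replicate 2. The part of RNA integrity in this difference was not tested. On the other Hdac9 probe set (1421306_a_at) the intensities were 115, 163, 139 and 166 in Hmga2 KO and 167, 168 and 161 in wild type, a log2 difference of -0.19.

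Hdac5, a deacetylase that leaves the nucleus when muscle cells differentiate, read 489, 571, 484 and 510 in Hmga2 KO against 566, 870 and 719 in wild type. Hmga2 KO replicate 2 lay just above the lowest wild type sample and the other 3 below all of wild type, and the spread was larger in wild type. The log2 difference was -0.46 (SE 0.14, adjusted p = 0.352, limma), with a 95% interval of -0.79 to -0.14. Without wild type replicate 2 it was -0.32. In female Hmga2 KO against wild type it was -0.39, and male minus female was -0.15.

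Hdac4, a repressor of Mef2 targets that is induced when muscle loses its nerve, read 2071, 1543, 1812 and 2170 in Hmga2 KO and 2305, 1363 and 1841 in wild type on its brightest probe set. The groups overlapped in full, with a log2 difference of 0.07 (SE 0.18, 95% interval -0.34 to 0.48). Its dimmer probe sets differed by 0.0035 and 0.22. Hdac7, a class IIa member with roles in endothelium and thymocytes, read 338 and 302 in the male and 242 and 244 in the female Hmga2 KO samples, against 275, 282 and 301 in wild type. Its order was the opposite of that of Mef2c, with the males highest, but the male values exceeded wild type narrowly. Male minus female was 0.39 on this probe set (adjusted p = 0.759, limma) and 0.23 on the other (1420812_at), which read 183 and 155 in the male and 136 and 151 in the female Hmga2 KO samples, against 150, 125 and 175 in wild type. There the wild type values overlapped both sexes.

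**Figure D3:**
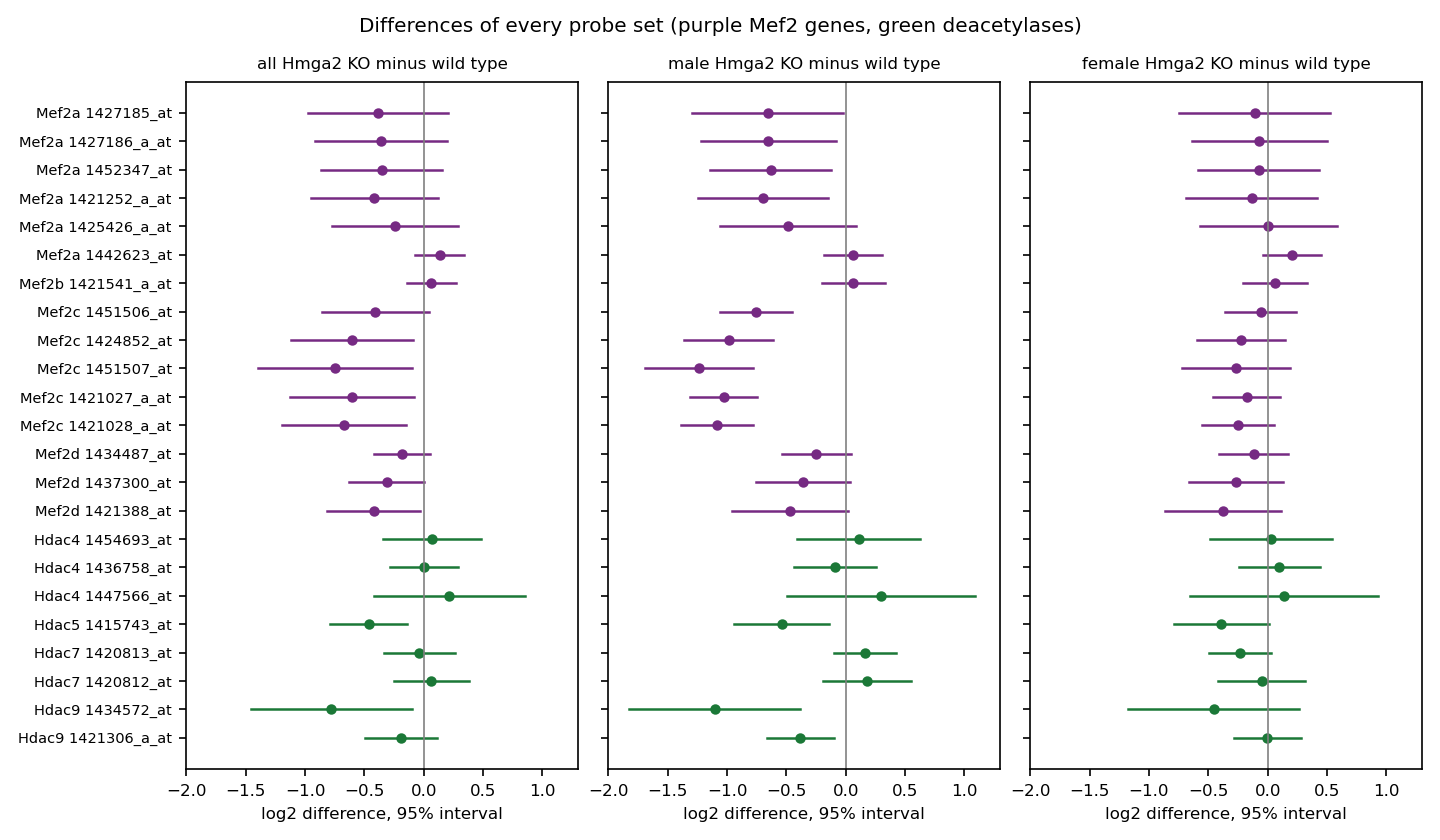
Log2 difference from wild type of every probe set, with its 95% interval, for all Hmga2 KO samples (left), male Hmga2 KO (middle) and female Hmga2 KO (right). In the middle panel the 5 Mef2c probe sets lie at -1.23 to -0.76, and in the right panel at -0.27 to -0.06.

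The promoters of these genes were searched for the consensus MEF2 site, named here without letters because it holds degenerate positions, on both strands. RefSeq windows of 250 bases before to 50 after each transcription start (GRCm38.p6) were used, 14 windows for the 8 genes. The windows of Mef2a and Hdac5 held a site, and those of Mef2b, Mef2c, Mef2d, Hdac4, Hdac7 and Hdac9 did not. Of all 32851 windows, 3.19% held one. An E-box, CANNTG, the site of MyoD family factors, was in 8 of the 14 windows, and in 72.3% of all windows. The listed MEF2 target genes had 30 windows, which covered 23 of the 28 genes, and 5 of the windows held a MEF2 site. Among these was the window of Xirp2, which had no probe set of its own and is not shown. The matches in Mef2a and Hdac5 are shown for their letters and those of 3 muscle target genes and Jun for comparison, and none is evidence of binding in these cells. Capitals mark the match, flanked by 20 bases on each side and written 5′ to 3′ on the strand of the gene.
Mef2a (chr7:67372831-67372880, minus strand): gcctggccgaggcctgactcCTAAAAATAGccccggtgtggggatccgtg
Hdac5 (chr11:102230163-102230212, minus strand): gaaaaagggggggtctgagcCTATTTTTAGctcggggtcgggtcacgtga
Pgam2 (chr11:5803847-5803896, minus strand): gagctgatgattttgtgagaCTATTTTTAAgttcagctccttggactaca
Srpk3 (chrX:73774318-73774367, plus strand): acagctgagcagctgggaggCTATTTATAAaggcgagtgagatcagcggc
Klhl41 (chr2:69670037-69670086, plus strand): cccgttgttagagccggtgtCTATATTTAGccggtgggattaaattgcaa
Jun (chr4:95052226-95052275, minus strand): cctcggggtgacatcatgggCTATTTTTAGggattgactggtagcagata

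Pgam2, the muscle phosphoglycerate mutase, had log2 values of 10.85 ± 0.68 in Hmga2 KO (SD, n = 4) and 11.51 ± 0.48 in wild type (SD, n = 3). Srpk3, a muscle kinase gene, had 9.57 ± 0.88 in Hmga2 KO and 10.29 ± 0.58 in wild type, and Klhl41, a sarcomere-associated protein gene, 11.46 ± 0.75 in Hmga2 KO and 12.20 ± 0.27 in wild type. Jun, an immediate early factor, had 13.21 ± 0.08 in Hmga2 KO and 13.22 ± 0.17 in wild type. None of the 4 passed over all genes (adjusted p = 0.407 to 0.978, limma).

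The list of MEF2 target genes was then examined with 1 probe set per gene, 27 of 28 genes being measured. None passed the adjusted threshold between Hmga2 KO and wild type, against 0.0275% of all genes. Without adjustment 14 had a p under 0.05 with lower values in Hmga2 KO, against 10.3% of all genes, and 1 with higher values, against 2.99%. The list's median log2 difference was -0.54, and that of all genes -0.07. In female Hmga2 KO against wild type its median was -0.25, and in male Hmga2 KO against wild type -0.84. Between male and female Hmga2 KO, 10 of 27 had an unadjusted p under 0.05 with lower values in males, against 3.65% of all genes. A list of 30 muscle differentiation genes that holds none of these targets went the same way. Of the 30, 13 were lower in Hmga2 KO and 18 were lower in male than in female Hmga2 KO, each at an unadjusted p under 0.05. In male minus female Hmga2 KO all 30 lay below the median of all genes, which was -0.04. The median log2 difference of that list was -0.61 in Hmga2 KO against wild type, and -0.94 in male Hmga2 KO against wild type.

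Single targets differed in where they placed the male samples. Ppargc1a, a coactivator of mitochondrial genes, had log2 values of 7.94 to 8.29 in Hmga2 KO and 8.41 to 8.95 in wild type, without overlap (difference -0.53, adjusted p = 0.274, limma). Over all genes, 9.29% had every Hmga2 KO sample below every wild type sample. Slc2a4, the insulin-regulated glucose transporter, had 8.69 and 9.56 in males and 10.49 and 10.20 in females of the Hmga2 KO, against 10.59, 10.74 and 10.49 in wild type, the order of Mef2c. Mb, which encodes myoglobin, Lmod2, of the thin filament, and Myom1, of the M-band, also had both male Hmga2 KO samples below the other 5. Over all genes, 12.1% had this order. Slc2a4 and Myom1 were named for a small p between the sexes, so their split follows from that choice. Meg3, a noncoding gene of an imprinted domain, had the opposite direction, with 11.80 ± 0.47 in Hmga2 KO and 10.72 ± 0.75 in wild type (SD, n = 4 and n = 3, adjusted p = 0.297, limma).

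The target list and the list of muscle differentiation genes were set beside Mef2c. Relative to the mean of all 7 samples, the log2 mean of the target list was -0.72, 0.27, -0.24 and -0.15 in Hmga2 KO replicates 1 to 4, against 0.04, 0.56 and 0.23 in wild type. That of the 30 differentiation genes was -0.98, 0.29, -0.29 and -0.12 in Hmga2 KO, against 0.08, 0.67 and 0.34 in wild type. Hmga2 KO replicate 1 was the lowest in both lists, as in Mef2c and Mef2a, and replicate 4 also lay below every wild type sample in both. In male Hmga2 KO against wild type, 2 of the 30 passed as lower, Tcap, a titin-binding protein gene (-1.45, adjusted p = 0.013), and Myh8, a perinatal myosin gene (-1.73, adjusted p = 0.0418, limma), against 0.0879% of all genes. The part of the state of differentiation in the Mef2c values was not tested.

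**Figure D4:**
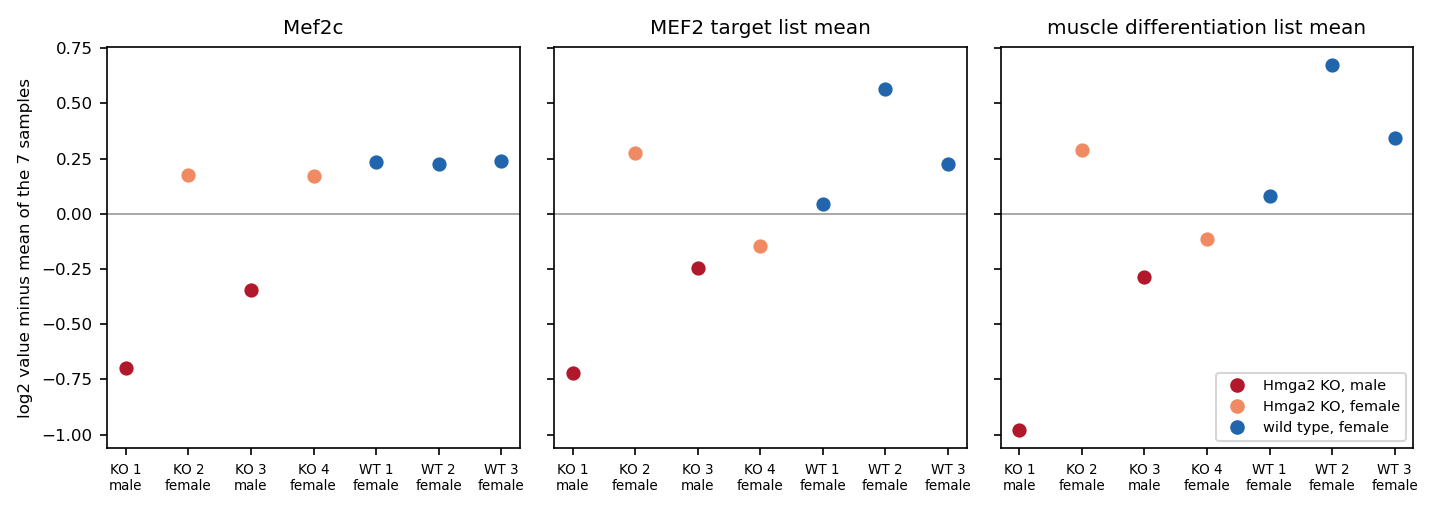
Log2 values minus the mean of the 7 samples for Mef2c (brightest probe set), the 27 MEF2 target genes and the 30 muscle differentiation genes, 1 point per sample, Hmga2 KO left and wild type right. Hmga2 KO replicate 1 is lowest in all panels (-0.72 and -0.98 in the lists).

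The proteins that act on Mef2 factors and on the deacetylases were given as 4 further lists, and 0 members passed the adjusted threshold in any of them. Of 20 cofactors and upstream kinases of Mef2, 2 were lower in Hmga2 KO at an unadjusted p under 0.05, near the 10.3% of all genes, and 1 was higher, against 2.99% of all genes. The list median was -0.15. Vgll2, a muscle cofactor of Mef2, had log2 values of 7.03 ± 0.32 in Hmga2 KO and 7.54 ± 0.20 in wild type. Map2k5, the kinase upstream of Erk5, had 9.13 ± 0.15 in Hmga2 KO and 9.50 ± 0.14 in wild type, and Ep300, a histone acetyltransferase, the opposite order, 11.83 ± 0.12 in Hmga2 KO and 11.55 ± 0.10 in wild type (SD, n = 4 and n = 3). In the last 2 genes the groups did not overlap. Every Hmga2 KO sample lay below every wild type sample, as in Map2k5, in 9.29% of all genes. The share with the reverse order, as in Ep300, was not counted. Akap6, a scaffold of kinases in muscle, had both male Hmga2 KO samples lowest, with a mean of 9.56 in males, 10.41 in females and 10.54 in wild type. It was named for a small p between the sexes, and 12.1% of all genes had both male Hmga2 KO samples lowest.

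Of 25 kinases, phosphatases and 14-3-3 proteins of class IIa deacetylases, 3 were lower in Hmga2 KO and 0 higher at an unadjusted p under 0.05, against 10.3% and 2.99% of all genes, with a list median of -0.11. Camk1 and Camk2a, calcium-dependent kinases, had log2 values of 8.33 ± 0.03 and 8.90 ± 0.53 in Hmga2 KO, against 8.58 ± 0.11 and 9.74 ± 0.53 in wild type (SD, n = 4 and n = 3). Camk1d and Camk2b, of the same family, divided the Hmga2 KO samples by sex in opposite directions. Both were named for a small p between the sexes, so a division by sex follows from that choice. Camk1d had a mean of 8.58 in males and 7.70 in females (male minus female 0.88, adjusted p = 0.197, limma), and Camk2b 8.85 in males and 9.63 in females (-0.78, adjusted p = 0.507). Of 11 measured corepressor partners 1 was lower at an unadjusted p under 0.05, Hdac3, the class I enzyme that class IIa complexes carry, with 10.63 ± 0.19 in Hmga2 KO and 10.95 ± 0.23 in wild type. Of 14 other deacetylases and sirtuins Hdac3 was again the one below that value, and with 10.3% of all genes lower by this measure neither count stands out. The list medians were -0.15 and -0.13.

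Genes were sought with the profile most like that of the brightest Mef2c probe set (1451506_at). The search covered 9677 genes with a mean log2 value of at least 8, and the other Mef2c probe sets were not used. The 5 with the highest Pearson r over the 7 samples were Yipf6, Eif2s3x, Morc4, Synrg and Tmem47, with r of 0.993, 0.993, 0.991, 0.989 and 0.988. Of these, 4 lie on the X chromosome and Synrg on chromosome 11, whereas Mef2c lies on chromosome 13. Of the 161 genes with r over 0.9, 11.8% were X-linked, against 3.33% of the 9677 genes compared. Eif2s3x had log2 values of 13.39 and 13.56 in the male and 13.81 and 13.75 in the female Hmga2 KO samples, against 13.83, 13.85 and 13.83 in wild type. The 7 points share the same split by sex and genotype.

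Markers of the cells that a muscle culture can hold were set beside these values. Pax7, Myf5 and Myod1, which define myoblasts, were all far above background, with log2 values of 10.72 to 13.90 in Hmga2 KO and 10.46 to 13.94 in wild type, where the background range ends at 5.89. The mean of the 10 myoblast markers, relative to all samples, was -0.16 to 0.20 in Hmga2 KO and 0.00 to 0.01 in wild type. Vcam1 (-0.23) was the 1 of the 10 lower in Hmga2 KO at an unadjusted p under 0.05, near the 10.3% of all genes. By that measure 0 were higher, against 2.99%. The mean held differences of both signs, such as 0.64 for Myf5 and -0.60 for Itga7. Of 13 measured fibroblast and fibro-adipogenic markers, 4 had higher values in Hmga2 KO at an unadjusted p under 0.05, against 2.99% of all genes, and 0 lower, against 10.3%, with list means of -0.02 to 0.41 in Hmga2 KO and -0.28 to 0.04 in wild type. The 4 were Mgp, Smoc2, Islr and Dcn, of which none passed the adjusted threshold. Smoc2, a matrix protein gene, had log2 values of 8.27 ± 0.72 in Hmga2 KO and 6.60 ± 0.11 in wild type, and Mgp, another, 12.15 ± 0.16 in Hmga2 KO and 11.42 ± 0.12 in wild type (SD, n = 4 and n = 3), both without overlap. The share of all genes with every Hmga2 KO sample above every wild type sample was not counted. The highest list mean, 0.41, belonged to Hmga2 KO replicate 1, in which Mef2a and Mef2c were lowest, but the markers did not all share that order. Replicate 1 was the lowest Hmga2 KO sample for Mgp, at 11.97 against 12.08 to 12.34 in the others, and for Islr, at 10.23 against 10.71 to 11.22. Its Pdgfra value was 9.28, against 7.57 to 7.65 in the other Hmga2 KO samples and 7.06 to 8.58 in wild type, and its Cd34 value 9.04, against 6.57 to 6.85 in the other Hmga2 KO samples and 6.67 to 7.45 in wild type. Dcn had 6.00 to 6.38 in Hmga2 KO and 5.82 to 6.03 in wild type, at the top of the background range, so its place among the 4 says little. The part of such cells in the Mef2 values was not tested.

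Endothelial cells, leukocytes and neural cells express Mef2c or Hdac7 too. Pecam1, Cdh5 and Kdr, which mark endothelium, had log2 values of 6.06 to 6.75 in Hmga2 KO and 6.09 to 6.80 in wild type, and Ptprc, Adgre1 and Cd68, of leukocytes, 5.70 to 6.98 in Hmga2 KO and 5.59 to 6.92 in wild type, near the top of the background range. Laptm5 of the leukocyte list was brighter, at 8.17 to 9.50 in Hmga2 KO and at least 8.81 in wild type. The list means were -0.09 to -0.01 in Hmga2 KO and 0.04 to 0.11 in wild type for 8 endothelial markers, and -0.06 to 0.14 in Hmga2 KO and -0.11 to 0.11 in wild type for 8 leukocyte markers. For 6 measured Schwann and neural markers they were -0.21 to 0.17 in Hmga2 KO and -0.08 to 0.13 in wild type, with Sox10 at 6.15 to 6.44 in Hmga2 KO and 6.29 to 6.33 in wild type. Erbb3 of that list was bright, and its male Hmga2 KO values, 10.94 and 11.54, lay below 12.41 and 11.93 in females and 11.95, 12.56 and 12.04 in wild type. Its p between the sexes was among the reasons for naming it. For 8 smooth muscle and pericyte markers the list means were -0.06 to 0.27 in Hmga2 KO and -0.33 to 0.11 in wild type. At an unadjusted p under 0.05, 0 of these markers were lower in Hmga2 KO, against 10.3% of all genes. By the same measure 1 marker was higher, against 2.99% of all genes. It was Rgs5, a pericyte gene, with 13.12 ± 0.40 in Hmga2 KO and 11.40 ± 1.42 in wild type (SD, n = 4 and n = 3, adjusted p = 0.295, limma), and its part in the Mef2 values was not tested. Between male and female Hmga2 KO, 3 of the 8 were higher in males at an unadjusted p under 0.05. They were Tagln (0.73), Cnn1 (0.69) and Pdgfrb (0.34), and none passed the adjusted threshold. The share of all genes higher in males was not counted. Cnn1 had log2 values of 5.14 to 6.21, in or just above the background range.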

How the data were processed

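Biotin-labelled cRNA of 7 samples was hybridised to Affymetrix arrays, per the labels' protocols. The authors deposited 1 intensity per probe set on a linear scale. As the values show, each array was scaled to the same median; the sources used here do not name the summarization, background correction or software. No detection calls were used. The 64 control probe sets were left out of the tests.

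Values were taken as log2(intensity + 1) of the deposited intensity with no further normalization, and differences are on that scale. Names came from the platform table, in which 34945 probe sets have 1 gene, 932 several and 9160 none. Updating through RefSeq (GRCm38.p6) changed 0 symbols, and 204 probe sets had no match there. Gene lists used the brightest probe set, by mean over the samples, of each of 18193 genes.

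Groups were compared with limma 3.58.1 in R 4.3.3 (lmFit, eBayes) over all 45037 probe sets or all genes, without covariates, with Benjamini-Hochberg adjustment and a threshold of 0.05. A fit with male Hmga2 KO, female Hmga2 KO and wild type as 3 groups gave the contrasts by sex. Samples are labelled as biological replicates, with nothing on separate cultures or animals beyond their numbers, so p-values measure the spread between these samples, and 7 arrays limit the precision. Genes named from a list came from the up to 4 with the smallest p between genotypes, the up to 3 with the smallest p between sexes of the Hmga2 KO, and the first 3 markers of each cell type. A few are left unnamed. Genes with a MEF2 site were named for their promoter. The members and lists were chosen with earlier results of these data known. Scripts were tested on simulated data.

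Results were recomputed with quantile normalization, with a pseudocount of 16, without the dimmest 40% of probe sets, with other ways to represent a gene, with a prior that was trended and robust, with array weights, at an adjusted p of 0.1, with sex in the model, in females only, with a block for the replicate number, and without each sample in turn. Those for male Hmga2 KO against wild type were chosen after seeing the data.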

Additional observations from a re-analysis of the deposited data

How the results depend on the processing

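Precision is limited by 4 Hmga2 KO and 3 wild type samples, and the contrasts by sex rest on 2 male samples. Between Hmga2 KO and wild type, and between male and female Hmga2 KO, 0 of the 23 probe sets passed under every alternative run. Of 634 alternative values, 592 kept their direction and side of the threshold. Apart from the Mef2c calls in males, every main value lay above the threshold, so keeping its side says little. Over all probe sets 8 passed, against 84 with the replicate block, 13 with the trended and robust prior, 15 at an adjusted p of 0.1 and 4 to 34 when single samples were left out. Over all genes 5 passed, against 99 with the replicate block, 9 at an adjusted p of 0.1 and 2 to 17 when single samples were left out. The replicate numbers are those of the titles, while other labels number the samples differently. With the mean of each group taken off, same-number Hmga2 KO and wild type samples correlated at 0.228, 0.305 and -0.174 over all probe sets. Samples of different number were not compared, so whether the numbers pair the samples was not tested. For male Hmga2 KO against wild type 2 of 23 passed, against 5 with the trended and robust prior and 5 at an adjusted p of 0.1, and 0 to 2 when single samples were left out.

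Small differences between Hmga2 KO and wild type turned sign, and the cause was not tested. With sex in the model, or in females only, Mef2a 1425426_a_at was 0.0047 and Hdac7 1420812_at -0.051. With the replicate block Hdac4 1436758_at was -0.040 and Hdac7 1420813_at 0.028. Quantile normalization put 1420813_at at 0.0083. The gene Hdac7 was 0.014 by the mean of its probe sets and 0.063 by the most variable one. When single samples were left out, Hdac4 ran over -0.13 to 0.25 on 1454693_at, -0.076 to 0.096 on 1436758_at and -0.16 to 0.58 on 1447566_at. Hdac7 then ran over -0.13 to 0.031 on 1420813_at and -0.062 to 0.18 on 1420812_at. Male minus female Hmga2 KO then ran over -0.038 to 0.039 for Mef2b and -0.16 to 0.33 for Hdac4. Mef2b had no value without the dimmest 40% of probe sets.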
